A study of Mus musculus with 2 samples.

Results

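The 10 tubulin isotypes described here are genes that encode the subunits of microtubules in the adult mouse hippocampus. They were taken by gene symbol, as Tuba1a, Tuba1b and Tuba4a of the alpha family, Tubb2a, Tubb2b, Tubb3, Tubb4a, Tubb4b and Tubb5 of the beta family, and Tubg1 of the gamma family. They are 10 of 20 annotated tubulin genes of the alpha to epsilon families and 10 of 55536 annotated genes. The rule uses symbols and no measured value. Total RNA was sequenced from 2 hippocampal samples of adult male mice aged 8 to 10 months, of the strain B6CASTF1/J (an F1 hybrid between C57BL/6J and CAST/EiJ). Each animal gave 1 strand-specific library from 300 ng of RNA, depleted of ribosomal RNA and carrying ERCC control RNAs as spike-ins. Animal 2 gave replicate 1 and animal 4 gave replicate 2, and the labels list both under the same donor. There was 1 group of 2 animals and no treatment, so levels within the tissue and the spread between the libraries are what the data can show. The tissue label names a layer of hippocampus and does not say which.

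Alpha- and beta-tubulin pair into a dimer, and dimers stack into the wall of the microtubule. Gamma-tubulin sits in a ring complex that starts new microtubules. Mammals carry several genes for each subunit, whose products are alike over most of their length and differ mainly in a short acidic tail on the outside of the microtubule, where enzymes add or remove glutamates and, on many alpha isotypes, the last tyrosine. In neurons, microtubules hold the shape of axons and dendrites and carry transport. Tubb3 is widely used as a neuronal marker, and Tubb4a is known for its high level in myelinating oligodendrocytes.

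The tails show where many of the isotypes part, though not every pair, and are given for 8 of the 10 genes. Each line below gives the end of the coding sequence, its last 20 codons and the stop codon, from the complete protein-coding reference transcript of each gene (GENCODE M21, mm10, written 5′ to 3′ on the gene's strand). Capitals mark in-frame glutamate codons, which encode the residues that glutamylating enzymes can extend. These are reference bases, and the CAST/EiJ alleles of the animals were not analysed here.

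Tuba4a: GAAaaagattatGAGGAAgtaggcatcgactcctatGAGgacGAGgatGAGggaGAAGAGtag

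Tubb2a: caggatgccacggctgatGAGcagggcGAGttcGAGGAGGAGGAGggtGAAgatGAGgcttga

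Tubb2b: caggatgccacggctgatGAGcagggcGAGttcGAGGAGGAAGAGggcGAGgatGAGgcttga

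Tubb3: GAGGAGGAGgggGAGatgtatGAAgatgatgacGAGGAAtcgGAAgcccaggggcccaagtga

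Tubb4a: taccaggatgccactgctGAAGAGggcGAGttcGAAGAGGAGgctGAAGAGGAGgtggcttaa

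Tubb4b: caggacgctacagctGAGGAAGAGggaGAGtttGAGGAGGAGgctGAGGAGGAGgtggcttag

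Tubb5: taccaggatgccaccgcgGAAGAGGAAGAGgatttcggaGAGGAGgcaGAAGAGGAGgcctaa

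Tubg1: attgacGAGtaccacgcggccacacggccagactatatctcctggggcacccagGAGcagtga

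These stretches lie at chr1:75215622-75215684 (Tuba4a), chr13:34074468-34074530 (Tubb2a), chr13:34127471-34127533 (Tubb2b), chr17:57080690-57080752 (Tubb4a), chr2:25222308-25222370 (Tubb4b) and chr17:35834982-35835044 (Tubb5), all on the minus strand. Those of Tubb3 at chr8:123421620-123421682 and Tubg1 at chr11:101126167-101126229 are on the plus strand. Each stretch lay within 1 exon. The tails of Tuba4a and the 6 beta genes held 8 to 10 glutamate codons, the most in Tubb4b, and the Tubg1 tail held 2. The stretches of Tubb2a and Tubb2b differ in a few bases but encode the same residues, so this tail does not part them. Tuba4a ends in a glutamate codon (GAG), so its last encoded residue is not the tyrosine that the removing enzymes cut.

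The first codons also differ by family. Cells adjust tubulin RNA to the amount of free tubulin protein, and the reader of this signal, the product of Ttc5, binds the first residues of a new tubulin chain on the ribosome. The first 12 coding bases are shown for 1 gene of each family, with codons 2 to 4 in capitals.

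Tuba1a: atgCGTGAGTGC

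Tubb2a: atgCGCGAGATC

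Tubg1: atgCCGAGAGAA

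The 3 alpha genes had TGC as codon 4 and the 6 beta genes had ATC. The Tubg1 start shared none of codons 2 to 4 with either. The Tubb2a start lies at chr13:34077918-34077929 (minus strand) and that of Tubg1 at chr11:101120194-101120205 (plus strand). In the alpha genes an intron splits these bases.

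Levels are given as gene TPM, which is corrected for transcript length and has the same total in each library, so that genes of different length can be set side by side. The deposited values came from 2 programs. The first quantifier has the column names of RSEM and came with lower and upper bounds of TPM. The second has the column names of kallisto, and its transcript values were summed per gene here. The depth was 23458117 and 29584307 expected counts in replicates 1 and 2, of which the 10 isotypes took 53089 (0.226%) and 77113 (0.261%).

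Among the alpha genes, Tuba1a was the highest. Tuba1a (chr15:98949837-98953703, minus strand), the main alpha isotype of developing neurons, had 393 TPM in replicate 1 (bounds 365 to 383) and 443 in replicate 2 (bounds 418 to 434), a mean of 418.0 ± 35.1 (SD, n = 2). Tuba1b (chr15:98931425-98934565, minus strand), a widely expressed isotype, had 239.9 TPM (bounds 219.9 to 237) and 258 TPM (bounds 241 to 257), a mean of 249.0 ± 12.9. Tuba4a (chr1:75214228-75219865, minus strand), the isotype without the encoded last tyrosine, had 240.0 TPM (bounds 224 to 241) and 244 TPM (bounds 231 to 249), a mean of 242.0 ± 2.86. Tuba1a thus stood above Tuba1b and Tuba4a in both libraries, while Tuba1b and Tuba4a overlapped in their bounds.

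The beta genes spanned a wider range, with Tubb2a at the top and Tubb2b at the bottom, although these are the most alike of the 6 in sequence. Tubb2a (chr13:34074274-34078007, minus strand), a major isotype of neurons, had 419 TPM (bounds 390 to 408) and 439 TPM (bounds 415 to 431), a mean of 428.9 ± 13.8 (SD, n = 2). Tubb4a (chr17:57080066-57087782, minus strand) had 246 TPM (bounds 229 to 239) and 266 TPM (bounds 251 to 261), a mean of 255.8 ± 14.0. Both libraries placed it below Tubb2a and above the remaining beta genes. Tubb5 (chr17:35833921-35838306, minus strand), a widely expressed isotype, had 169.9 TPM (bounds 157 to 168) and 178 TPM (bounds 168 to 177), a mean of 173.8 ± 5.55. Tubb4b (chr2:25222160-25224702, minus strand), which is found in many tissues and in cilia, had 149 TPM (bounds 137 to 147) and 160.0 TPM (bounds 149.9 to 159), a mean of 154.5 ± 7.76. These 2 widely expressed isotypes together stayed below Tubb2a in each library. Tubb3 (chr8:123411424-123422015, plus strand), the neuronal marker, had 130.4 TPM (bounds 120.3 to 129) and 149 TPM (bounds 140.2 to 149), a mean of 139.8 ± 13.2. Tubb2b (chr13:34126748-34130466, minus strand), known for its role in migrating neurons, had 97.2 TPM (bounds 89.4 to 98.4) and 103 TPM (bounds 94.7 to 106), a mean of 100 ± 3.96. The neuronal marker Tubb3 was therefore eighth of the 10 genes by level.

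Tubg1 (chr11:101119938-101126419, plus strand), which acts in the ring complex and not in the microtubule wall, was the lowest at 21.2 TPM (bounds 18.6 to 22.1) and 20.2 TPM (bounds 18.0 to 21.1), a mean of 20.7 ± 0.721 (SD, n = 2). Among 22015 nuclear protein-coding genes ranked by mean TPM, Tubb2a was number 86, Tuba1a 92, Tubb4a 227, Tuba1b 240, Tuba4a 255, Tubb5 430, Tubb4b 528, Tubb3 623, Tubb2b 990 and Tubg1 5832. In each library the TPM of 7 of the 10 genes lay above its own upper bound, while the deposited posterior mean lay within the bounds for 10 of 10. The bounds cover the division and counting of reads and not the spread between animals, and no source used here states their level.

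**Figure D1:**
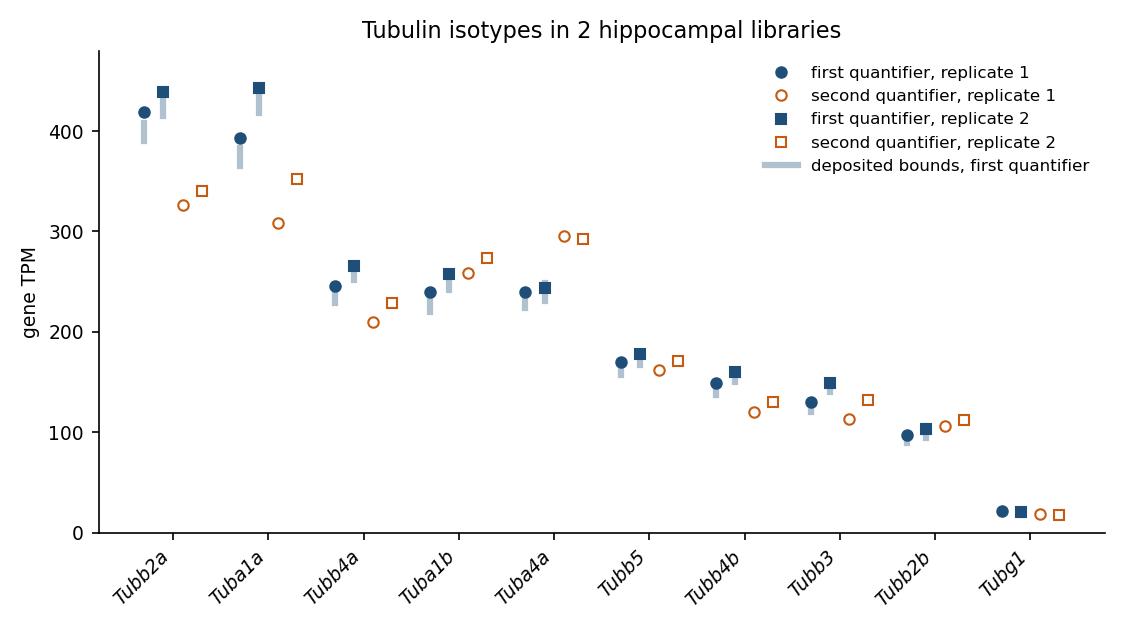
Gene TPM (vertical axis, linear from 0) of the 10 tubulin isotypes, ordered by mean TPM, in replicate 1 (circles) and replicate 2 (squares) by the first quantifier (filled) and the second (open); pale bars are the deposited bounds of the first. Tubb2a and Tuba1a lie above 390 TPM by the first quantifier and below 360 TPM by the second, and Tuba4a is higher by the second.

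From the highest mean TPM to the lowest, the order was Tubb2a, Tuba1a, Tubb4a, Tuba1b, Tuba4a, Tubb5, Tubb4b, Tubb3, Tubb2b and Tubg1. Genes were called separated where each library put the lower bound of one gene over the upper bound of the other. By this rule 6 of 9 neighbouring steps and 41 of 45 pairs were separated. The 4 pairs that were not are Tubb2a with Tuba1a, and each pair among Tubb4a, Tuba1b and Tuba4a. The step from Tuba1a to Tubb4a was 1.63-fold in mean TPM, and that from Tubb2b to Tubg1, which leaves the wall subunits, was 4.83-fold. With 2 animals no exact permutation test can pass 0.05, so no p is attached to the order.

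The second quantifier kept the first 2 places and places 6 to 10, and 42 of 45 pairs had the same order. Its values for Tubb2a were 327 and 341 TPM, and for Tuba1a 309 and 352 TPM. Its next place went to Tuba4a, at 295 and 293 TPM, before Tuba1b at 259 and 274 TPM and Tubb4a at 210.0 and 229 TPM. Of the Tuba4a values, 64.8 and 56.2 TPM were those of 1 short transcript, Tuba4a-207, with 2.01 and 1.66% of the gene's counts. That is more than the lead of Tuba4a over Tuba1b, so this place rests on few reads. The 3 pairs that changed order are those among Tubb4a, Tuba1b and Tuba4a, which the bounds had not separated. Of the 41 separated pairs, 40 had the same direction by the second quantifier in both libraries. The exception was Tubb4b over Tubb3, which by the second quantifier had 120.2 and 129.9 TPM against 113.8 and 133 TPM, so that replicate 2 turned the direction. Tubb5 (162 and 171 TPM), Tubb2b (106 and 112 TPM) and Tubg1 (18.2 and 17.5 TPM) stayed in place.

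The similarity of the genes sets how far their reads can be told apart. Coding sequences were aligned end to end. Tuba1a and Tuba1b, neighbours on chromosome 15, were identical at 98.3% of aligned bases, with 23 mismatches and a longest identical run of 281 bases. Tubb2a and Tubb2b, neighbours on chromosome 13, were identical at 96.5%, with 47 mismatches and a longest run of 551 bases. The remaining pairs were less alike. The 15 beta pairs ranged from 81.5 to 96.5%, the 3 alpha pairs from 84.8 to 98.3%, and the 18 pairs of an alpha with a beta gene from 53.6 to 55.9%. Tubg1 matched the others at 50.3 to 52.8%. No 31-base word was shared between the coding sequences of an alpha and a beta member.

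Each transcript was also divided into overlapping words of 31 bases, and a word was counted as shared where the transcripts of another annotated gene hold it on the same strand. Tuba1a shared 77.0% of its words and Tuba1b 75.4%, most of all with each other, Tuba1c and processed pseudogenes (copies of a spliced RNA inserted elsewhere in the genome). For Tubb4b it was 64.6%, chiefly with the processed pseudogenes Tubb4b-ps1 and Tubb4b-ps2, and for Tubb2a and Tubb2b 56.4% and 45.9%, chiefly with one another. The share was 24.2% in Tubg1, 23.0% with Tubg2, and between 1.87 and 4.43% in Tubb4a, Tubb3, Tuba4a and Tubb5. For Tuba4a the transcript divided was the complete Tuba4a-202, which held only 2.56 and 2.70% of the gene's TPM by the first quantifier. In the coding region alone the share reached 97.2% for Tuba1b and 95.6% for Tuba1a, and was 8.05% for Tuba4a. The 3′ untranslated regions, by contrast, held no shared word in 8 of the 10, and 1.57% and 6.69% in Tuba1b and Tubb5.

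**Figure D2:**
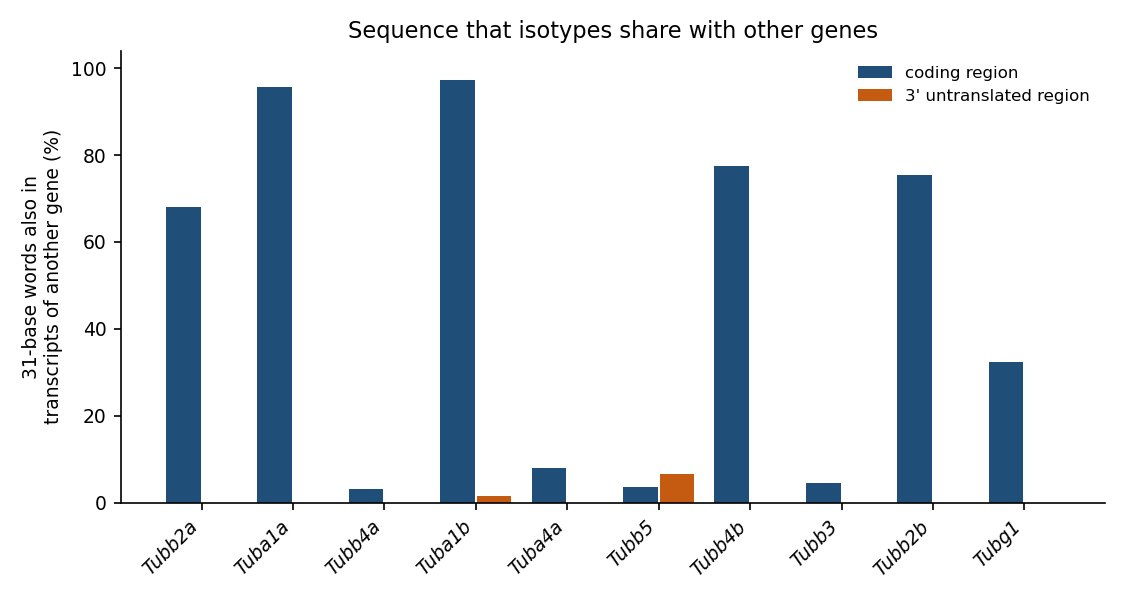
Percent of 31-base words (vertical axis) of each isotype's reference transcript that also occur in transcripts of another gene, for the coding region and the 3′ untranslated region, with genes ordered by mean TPM. Coding words are shared at 95.6% and 97.2% in Tuba1a and Tuba1b but at 3.14% in Tubb4a, and words of the 3′ untranslated region are mostly not shared.

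The genes outside the tubulin families that share most words with the members were added after the data had been seen. They numbered 14, each with at least 200 shared words summed over the members. Of these, 13 were processed pseudogenes and the other, Gm49450, is annotated as a protein-coding gene across Tuba1b and Tuba1a and was listed at 0 in both libraries. For 10 of the 14 the closest member was an alpha gene, Tuba1b for 7 and Tuba1a for 3. Only 6 had a mean TPM of 1 or more.

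The highest was Gm14150 (chr2:151458956-151460309, plus strand), a processed pseudogene with 72.4% of its words in Tuba1b. The first quantifier gave it 129 TPM in replicate 1 (bounds 115 to 129.5) and 133 TPM in replicate 2 (bounds 122 to 135). By the second it had 15.9 and 18.3 TPM. Tuba1b had 5496 expected counts by the first quantifier and 7154 by the second in replicate 1, while Gm14150 had 2276 and 328. Their sum was 7772 counts by the first and 7482 by the second, a ratio of 0.963, and in replicate 2 the ratio of the sums was 0.961. The summed counts of the pair thus differed less between the programs than those of either gene alone. In TPM the pair summed to 369 and 391 by the first quantifier and 275 and 292 by the second, which did not come as close. Over all annotated genes the second quantifier counted more, 25169750 against 23408838 in replicate 1 and 31173504 against 29512441 in replicate 2. The ratio was 1.08 and 1.07 for Tuba1a with Tuba1b. It was 0.944 and 0.943 for Tuba1b with Gm14150 and the 2 genes described next, Gm3226 and Gm6682. Whether the programs moved reads between these genes was not tested.

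Gm3226 (chr13:112593743-112595084, minus strand), with 74.5% of its words in Tuba1b, had 88.1 and 95.0 TPM by the first quantifier and 65.7 and 70.8 TPM by the second. Gm6682 (chr12:4782170-4783515, plus strand), with 56.0% of its words in Tuba1b, had 19.7 and 17.9 TPM by the first and 14.0 and 13.3 TPM by the second. Tubb4b-ps1, a copy of Tubb4b, had 13.1 and 12.7 TPM against 13.0 and 14.3. Tubb2a-ps2, whose closest member was Tubb2b, had 0.740 and 0.310 TPM by the first against 4.19 and 3.92 by the second. Whether reads listed under the pseudogenes came from them or from the parent genes was not tested.

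With every look-alike added to its closest member, Tuba1b had 479 and 506 TPM, a mean of 492.3 ± 19.2 (SD, n = 2), above Tuba1a at 418.0 and above Tubb2a at 428.9. By the second quantifier the same sum gave Tuba1b 367.0 TPM and Tuba1a 331.0 TPM. Tuba1a thus stood above Tuba1b as deposited and below it under this assignment. The TPM of each look-alike is per its own length, however, and the pseudogenes are shorter than Tuba1b. In replicate 1 Gm14150 had 128.7 TPM from 2276 expected counts, and Tuba1b 239.9 TPM from 5496. The sums therefore overstate what the same reads would give at the length of Tuba1b. Whether Tuba1b would lead at that length was not tested. Tuba1a was the next closest, with 57.0% of the words of Gm14150, 68.7% of those of Gm3226 and 54.0% of those of Gm6682. No other division of the look-alikes was run. Of the other members, Tubb4b changed most, from 154.5 to 170.9 TPM.

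**Figure D3:**
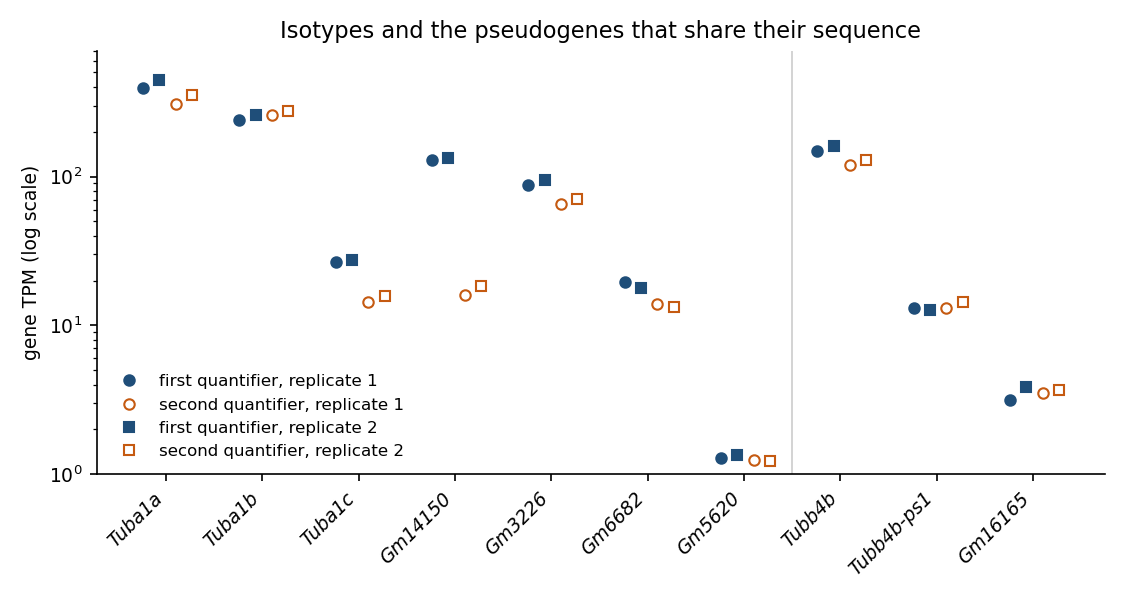
Gene TPM (vertical axis, log scale) of Tuba1a, Tuba1b, Tuba1c and Tubb4b and of the 6 look-alike pseudogenes with a mean of 1 TPM or more, in replicate 1 (circles) and replicate 2 (squares) by the first (filled) and second (open) quantifier; the grey line divides the alpha from the beta group. Gm14150 lies at 129 and 133 TPM by the first quantifier and at 15.9 and 18.3 TPM by the second.

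In the alpha pool, the summed TPM of all annotated alpha genes, Tuba1a made up 43.5 and 45.4% (mean 44.4% ± 1.33, SD, n = 2), Tuba1b 26.5 and 26.5%, and Tuba4a a mean of 25.8% ± 1.09. The fourth gene, Tuba1c, made up 2.94 and 2.82%, and Tuba8, Tuba3a, Tuba3b and Tubal3 together the small rest. By the second quantifier the 3 members were closer to even, with means of 36.3% for Tuba1a, 32.4% for Tuba4a and 29.3% for Tuba1b. The Tuba4a share includes the TPM of the short Tuba4a-207, which rests on few reads. With look-alikes added, Tuba1b took the largest share, 41.6% by the first quantifier and 36.3% by the second, against 35.3% and 32.7% for Tuba1a. These shares use the TPM sums above, which were not adjusted for the shorter pseudogenes. The choice of quantifier and the treatment of the pseudogenes moved the alpha shares by more than the 2 animals differed.

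The beta pool kept its order by mean share in each setting. The shares of Tubb2a, Tubb2b, Tubb4b and Tubb5 also moved between quantifiers by more than the 2 animals differed. Tubb2a made up 34.6 and 33.9% of the summed beta TPM, Tubb4a 20.3 and 20.5%, Tubb5 14.0 and 13.7%, Tubb4b 12.3 and 12.4%, Tubb3 10.8 and 11.5%, and Tubb2b 8.02 and 7.94%. The mean shares by the second quantifier were 30.98% for Tubb2a, 20.4% for Tubb4a, 15.5% for Tubb5, 11.6% for Tubb4b, 11.4% for Tubb3 and 10.1% for Tubb2b, in the same order. Adding the look-alikes left Tubb2a at 33.8% and Tubb4a at 20.1%. Gamma-tubulin was divided between 2 genes, with Tubg1 at a mean of 53.3% ± 4.73 of the pool (SD, n = 2) and Tubg2 at 46.7%, and equal in replicate 2.

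The summed alpha TPM was 904 in replicate 1 and 976 in replicate 2, and the summed beta TPM 1212 and 1295. Alpha RNA was therefore below beta RNA in both libraries, with a ratio of 0.745 and 0.754 (mean 0.749 ± 0.00587, SD, n = 2). The ratio was 0.844 by the second quantifier and 0.931 with the look-alikes added, again without adjustment for the shorter pseudogenes. The 10 members summed to 2183 ± 108 TPM.

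**Figure D4:**
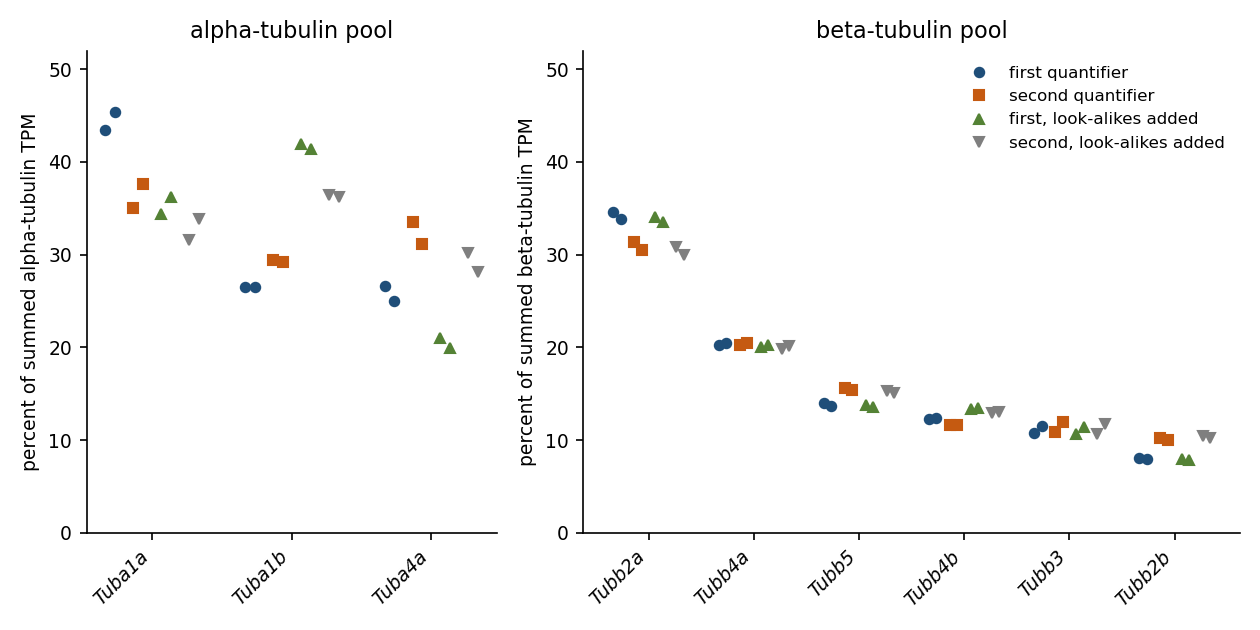
Percent of the summed alpha-tubulin TPM (left) and beta-tubulin TPM (right) for each member, with the 2 libraries of each setting side by side; the settings are the 2 quantifiers, each without and with look-alike pseudogenes added to member and pool. Tuba1a leads at 43.5 and 45.4% by the first quantifier, and Tuba1b leads once look-alike TPM is added without adjustment for length. The beta order starts with Tubb2a and Tubb4a in each setting.

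Tubulin genes outside the 10 were low. Tuba1c had 26.6 and 27.5 TPM by the first quantifier and 14.3 and 15.8 TPM by the second, and shares 63.9% of its words with other genes. Tubg2 had 16.2 and 20.2 TPM, so that Tubg1 was above it in replicate 1 and equal in replicate 2. Tuba8 had 3.90 and 3.21 TPM, Tubd1, a delta-tubulin of centrioles, 3.78 and 2.56 TPM, and Tube1, the epsilon-tubulin, 1.59 and 1.75 TPM. Tubb6 (0.600 and 0.320 TPM), Tubb1, the isotype of platelets (0.160 and 0.0400 TPM), and Tuba3a (0.150 and 0 TPM) stayed below 1 TPM. Tuba3b, Tubal3 and Tubb4b-ps2 were listed at 0 in both libraries by the first quantifier, and Tubal3 at 0.168 and 0.0144 TPM by the second.

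The annotation gives the 10 genes 25 transcripts, 18 of them protein-coding. Tuba1a, Tubb2a and Tubb4a have 1 transcript each, and in Tuba1b, Tubb3, Tubb4b and Tubg1 the complete coding transcript held 93.9% or more of the gene's TPM by either quantifier. The largest share of another transcript in these genes was that of the non-coding Tubg1-202, at 6.09% in replicate 1 by the second quantifier. In replicate 2 Tubg1-202 had 2.87%, below a second transcript of Tubb3 at 3.80%. In the other 3 genes the quantifiers split the transcripts differently.

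Tuba4a was carried by Tuba4a-201 (2083 bases), a transcript whose coding start is annotated as not found, at 198 and 219 TPM, 82.5 and 89.6% of the gene. The complete coding transcript Tuba4a-202 (2840 bases) had only 6.13 and 6.59 TPM. By the second quantifier Tuba4a-201 took 50.3 and 56.4%, and the short Tuba4a-207 (346 bases) took 21.9 and 19.2% at 64.8 and 56.2 TPM, against 0 and 0.790 TPM by the first. Those shares rested on few reads, since Tuba4a-207 had 134 and 156 estimated counts, 2.01 and 1.66% of the gene's counts. The second quantifier used an effective length of 110.6 bases for it, and the first 246 bases. Tuba4a-206 (1205 bases) had 31.1 and 12.6 TPM by the first and 57.5 and 45.5 TPM by the second, and Tuba4a-203 (782 bases) 0.910 and 1.44 TPM against 17.9 and 19.6 TPM.

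Tubb2b-202, a transcript of 430 bases annotated as non-coding, had 0 and 4.30 TPM by the first quantifier and 39.2 and 43.2 TPM by the second, where it made up 36.8 and 38.5% of the gene's TPM but 5.22 and 5.60% of its counts. The coding transcript Tubb2b-201 alone had 67.3 and 68.9 TPM by the second quantifier. Tubb5-204, a transcript with a retained intron (979 bases), had 10.4 and 7.37 TPM by the first and 37.8 and 38.8 TPM by the second. Tuba4a-203, Tuba4a-206, Tuba4a-207, Tubb2b-202 and Tubb5-204 were each higher by the second quantifier in both libraries, while Tuba4a-205 (815 bases) was lower, at 2.55 and 2.60 TPM against 3.86 and 3.72.

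Over all 10 genes, the second quantifier over the first gave a median log2 ratio of -0.21 in replicate 1 and -0.19 in replicate 2, beside -0.13 and -0.16 over the 14551 genes with TPM of 1 or more in both libraries. Tubb2a was at -0.36 in both libraries and Tuba1a at -0.35 and -0.33, and these 2 of 10 genes were at least 1.25-fold lower by the second quantifier in both libraries. That held for 7.37% of the 14551 genes. For 0 of 10 members was the second at least 1.25-fold higher in both, beside 4.40% of the genes, and the nearest was Tuba4a at 0.30 and 0.26. The 1.25-fold limit was chosen after the data had been seen.

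The 2 libraries differed little in the isotypes. The difference was tested over 16123 genes with edgeR on rounded expected counts, with p-values that compare these libraries, which may differ for technical reasons, and not conditions. By edgeR's residual deviance test with Benjamini-Hochberg adjustment, 0 of 10 members were called at an adjusted p under 0.05, beside 0.806% of all genes tested. At an unadjusted p under 0.05 it was also 0 of 10, beside 778 of 16123 genes, and the adjusted count was 0 of 10 with DESeq2's size factors and dispersion trend. The dispersion was estimated from the same 2 libraries that were tested, so the lack of calls does not show that the isotypes were equal. Tubb3 had the largest ratio, 3252 and 4995 expected counts, which is 0.31 on the log2 scale after scaling to library size (adjusted p = 1 in edgeR). Tuba1a followed at 0.29, Tuba1b at 0.24, Tubb4a at 0.23, Tubb4b at 0.22, Tubb5 at 0.21, Tuba4a at 0.19, Tubb2a at 0.18, Tubb2b at 0.15 and Tubg1 at 0.03.

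Each of the 10 was within 1.25-fold between the libraries in this fit, as were 71.7% of all genes tested. That did not hold in every setting. With the counts of the second quantifier Tuba1a and Tubb3 were both at 0.36 on the log2 scale, beyond that limit. Without the filter on low counts Tubb3 was at 0.34, also beyond it. The ratio was above 0 in 10 of 10, with a median of 0.22, beside 49.8% and -0.00 over all genes. Abundant genes leaned the same way, with 78.3% above 0 and a median of 0.12 among the 1265 tested genes with a mean of 90 TPM or more. Scaling to the spike-ins moved the median of all genes to -0.23 and that of the members to -0.01, with 3 of 10 above 0. The direction of the members therefore rests on the scaling. A scaling shifts all genes alike and leaves their place relative to the median gene as it was. TPM and the scaled counts did not always give the same direction. Tubg1 had 21.2 TPM in replicate 1 and 20.2 in replicate 2, although its log2 ratio was 0.03.

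**Figure D5:**
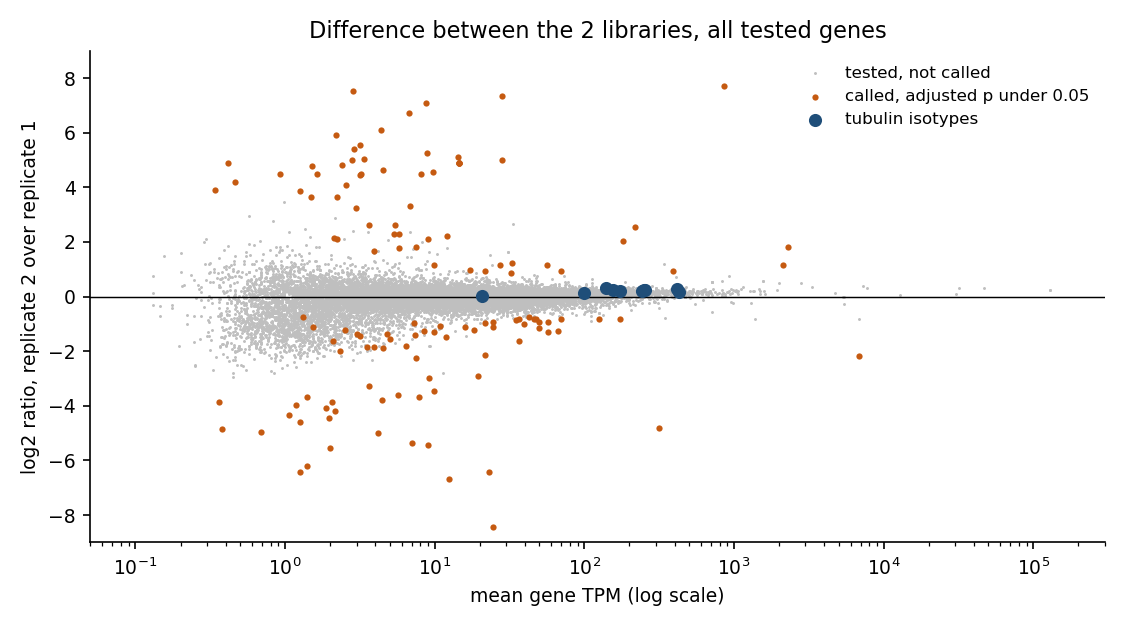
Log2 ratio of replicate 2 over replicate 1 (vertical axis) against mean gene TPM (horizontal axis, log scale) for the 16123 genes tested; grey points were not called, orange points had an adjusted p under 0.05 in edgeR, and blue points are the 10 tubulin isotypes. The isotypes lie between 0.03 and 0.31, within the band of genes that were not called.

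Markers of cell types moved unequally between the libraries. Choroid plexus markers, led by Ttr, summed to 17.9 TPM in replicate 1 and 1792 in replicate 2, and 8 of 9 were called higher in replicate 2 (Ttr, Folr1, Clic6, Kl, Slc4a5, Kcnj13, Aqp1 and Sostdc1), the exception being Otx2. The 12 markers of hippocampal neurons summed to 2893 and 2913 TPM, led by Snap25 at 1028 and 1068 TPM. Oligodendrocyte markers summed to 1798 and 1780 TPM (8 genes, led by Mbp), astrocyte markers to 1798 and 1752 TPM (7 genes, led by Slc1a2), and markers of immature neurons to 53.3 and 50.4 TPM (6 genes, led by Calb2). Markers of oligodendrocyte precursors summed to 47.1 and 38.9 TPM (led by Pdgfra), of endothelial cells to 81.9 and 74.2 (Ly6c1), of mural cells to 37.5 and 41.7 (Rgs5) and of ependymal cells to 17.4 and 25.4 (Rarres2). In these 8 lists edgeR called 0 of 49 tested genes, and 2 (Mog and Gpr17) had an unadjusted p under 0.05, near the share over all genes. On the log2 scale used for the isotypes, oligodendrocyte markers were above 0 in 8 of 8 (median 0.17), although their TPM sum was lower in replicate 2. Neuronal markers were above 0 in 9 of 12 (0.13), astrocyte markers in 6 of 7 (0.10) and markers of immature neurons in 1 of 5 tested (-0.32). Ependymal markers were above 0 in 4 of 4 tested (0.66) and mural markers in 4 of 4 (0.46), both with higher medians. Endothelial markers were above 0 in 2 of 5 (-0.00) and precursor markers in 2 of 4 (-0.03). The defining markers of hippocampal neurons were thus present in both libraries. The part of these cell types in the ratios of the isotypes was not tested. In bulk tissue, fewer cells of a type and less RNA per cell cannot be told apart, so the levels do not assign an isotype to a cell type.

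Genes that fold tubulin, seed and cut microtubules or modify the tails were gathered in 10 lists, the other tubulin genes included. Of their 87 tested genes edgeR called 0 between the libraries, as it did with DESeq2's size factors, and 2 (Cnot3 and Ttll4) had an unadjusted p under 0.05, a smaller share than the 778 of all 16123. Their levels below are by the first quantifier unless stated. The 21 genes for folding and pairing of tubulin each had a mean of 1 TPM or more. Pfdn5, a subunit of the prefoldin chaperone that hands new tubulin on, was the highest at 197 and 195 TPM, followed by Tcp1 (107.1 and 107.0 TPM) and Cct7 (109 and 105 TPM), both subunits of the chaperonin that folds tubulin. By the second quantifier Pfdn5 had 112 and 117 TPM, close to Tcp1 at 110.3 and 109.7 and to Cct6a, another chaperonin subunit, at 110.3 and 110.7, and Cct7 had 87.9 and 83.9. The lowest was Pfdn4 at 12.8 and 11.4 TPM. Of the gamma-tubulin ring complex and its recruiting factors, 19 of 19 had a mean of 1 TPM or more, led by Mzt1 (34.8 and 31.8 TPM), Mzt2 (29.7 and 30.1 TPM) and Akap9 (36.5 and 21.9 TPM, and 21.6 and 18.6 by the second quantifier), while Nedd1, which targets the ring to the centrosome and spindle, was lowest at 2.41 and 1.27 TPM (1.32 and 1.15 by the second).

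The adjustment of tubulin RNA to free tubulin works through Ttc5 and the CCR4-NOT deadenylase. Ttc5 had 36.0 and 30.2 TPM, and of the deadenylase subunits Cnot1 (79.4 and 51.7 TPM), Cnot7 (61.5 and 55.5 TPM) and Cnot2 (38.1 and 35.1 TPM) were the highest and Cnot11 (10.9 and 12.1 TPM) the lowest. Among the enzymes of the last tyrosine of alpha-tubulin, Vash1, which removes it, had 17.8 and 16.6 TPM, Ttl, which returns it, 18.3 and 15.2 TPM, and Svbp, the partner of the removing enzymes, 8.18 and 7.27 TPM, while Vash2, the other removing enzyme, was lowest at 0.580 and 1.08 TPM.

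For the glutamate codons of the tails, Agtpbp1, which trims glutamate chains, was the highest of its list at 168 and 181 TPM. Next came Ttll7, a glutamylase that favours beta-tubulin, at 68.2 and 69.6 TPM and Nicn1, a subunit of a glutamylase complex, at 58.3 and 69.0 TPM. Agbl1 was lowest at 0.230 and 0.180 TPM, and 14 of the 18 genes had a mean of 1 TPM or more. The glycylating enzymes were low, with Ttll3 at 10.6 and 6.75 TPM, Ttll8 at 1.21 and 1.02 TPM and Ttll10 at 0.220 and 0.340 TPM. Of the genes for lysine acetylation, Sirt2, a deacetylase, had 67.0 and 66.2 TPM, Atat1, the acetylase, 30.3 and 27.8 TPM, and Hdac6, a deacetylase, 24.6 and 21.1 TPM. Among severing enzymes Katnal1 (36.2 and 28.9 TPM) and Spast (26.1 and 23.3 TPM) led, and Fignl1 was lowest at 0.320 and 0.370 TPM.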

How the data were processed

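Per library, the authors deposited 1 table of genes and 2 of transcripts, on mm10 per the labels, with identifiers that matched GENCODE M21. Program versions were not given in the sources used here. Expected counts, as deposited, are estimated numbers of reads in which a shared read is divided among features. The deposited TPM values are per effective length, per the file headers. The deposited interval bounds of TPM are a signal on the same scale, and percent values, also deposited, state a transcript's part of its gene. For the second quantifier, transcript counts and TPM were added up per gene here.

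The members and lists were chosen with earlier results of these data known. Named were all members, the other tubulin genes, of each pathway list the 3 highest and the lowest by mean TPM, of each marker list the highest, any gene called, and transcripts with 5% or more of a member by either quantifier; Ttc5 was added for its role, and Tuba4a-202, Tuba4a-205, Cct6a, Otx2, the look-alike genes and those with an unadjusted p under 0.05 were added with their values seen. Genes at CPM of 1 or more in at least 1 library were tested with edgeR 4.0.16 (R 4.3.3) after rounding the expected counts. The fit used TMM scaling, an intercept alone, the trended dispersion and the residual deviance on 1 degree of freedom. The biological coefficient of variation was 0.191. Log2 ratios used a prior count of 2. The test was tried on simulated data first. DESeq2 1.42.0 gave alternative size factors and dispersions. Coding sequences were aligned with Biopython 1.88. Protein sequences were not analysed here, and some items that these rules name, 1 marker list among them, are not reported here. The listed symbols Tuba-ps1, Tubb-ps1, Tubg1-ps1 and Matcap1 matched no gene name.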

Additional observations from a re-analysis of the deposited data

How the results depend on the processing

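The summed TPM of the 10 isotypes was 1986 by the second quantifier, 4401 with TPM rescaled over nuclear protein-coding genes alone and 2443 with look-alike genes added, an alternative chosen after seeing the data. The share of Tuba1a in alpha TPM was 36.3% by the second quantifier and 35.3% with look-alikes, and the share of Tubb2a in beta TPM was 30.98% by the second quantifier. The alpha to beta ratio was 0.844 and 0.931 in those settings. Without 1 of the replicates the sum ranged from 2106 to 2259 TPM, the Tuba1a share from 43.5 to 45.4%, the Tubb2a share from 33.9 to 34.6% and the ratio from 0.745 to 0.754. The order by protein-coding transcripts alone was the same for 45 of 45 pairs. The median log2 ratio between quantifiers was -0.14 against the posterior mean, beside -0.20 as reported. Under a common dispersion 341 genes were called, beside 130 as reported, and in the other settings tried 87 to 130, with 0 members called in each. Spike-in scaling turned the median of the isotypes to -0.01 and, of single genes, Tuba4a to -0.04, Tubb2a to -0.05, Tubb2b to -0.08, Tubb4a to -0.0005, Tubb4b to -0.01, Tubb5 to -0.02 and Tubg1 to -0.20; the scaling shifts all genes alike. Leaving out a replicate could not be run for the test, which then has no residual degree of freedom. No paired analysis was possible because there is 1 group. Why the quantifiers differ was not tested. Each isotype had 509 or more expected counts in each library, and adding look-alikes moved Tuba1b by 1.98-fold, the only member moved by over 1.5-fold in that setting. All values with look-alikes added use TPM per each gene's own length, without adjustment for the shorter pseudogenes.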
